A study of Mus musculus with 6 samples.

Results

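The genes described here encode the DNA replication machinery: 39 genes named by function, from origin recognition to the joining of Okazaki fragments. All 39 were among the 24956 rows of a gene expression table and all passed the limit for testing, a mean of at least 1 RPKM (read counts scaled to transcript length and to the mapped reads of the library). The table held 6 RNA-seq libraries of mouse intestinal organoids, which are self-organising cultures of gut epithelium, grown from Apc Min cells. The Apc Min allele truncates Apc, which normally helps to destroy beta-catenin and so restrains Wnt signaling, and all 6 libraries carried it. Organoids in low glutamine medium gave 3 libraries and organoids in control medium gave 3. The labels describe the cells as primary, give the same genotype for both groups, and name neither the animals nor their age, the region of the gut, the glutamine levels or the time in medium. The study title concerns alpha-ketoglutarate, a metabolite made from glutamine, in relation to Wnt and to differentiation of colorectal tumors.

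Replication begins where the origin recognition complex sits on DNA and, with Cdc6 and Cdt1, loads the ring-shaped MCM helicase in G1 phase. The kinase pair Cdc7-Dbf4 and cyclin E with its kinase Cdk2 then allow Cdc45 and the GINS complex to join the helicase, after which primase, polymerases, clamp and ligase copy both strands. Many of these genes are transcribed under E2F factors, which the retinoblastoma protein holds in check. In the intestinal crypt, stem cells and their transit-amplifying progeny divide, and enterocytes on the villus do not.

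The groups differed in more than the medium named in the labels. Xist, the RNA that silences an X chromosome, measured 0.0237 to 0.035 RPKM in low glutamine libraries and 83.1 to 90.5 RPKM in control libraries. The Y-linked gene Eif2s3y measured 25.2 to 31.4 RPKM in low glutamine libraries and was listed at 0 in each control library. With a male pattern in one group and a female pattern in the other, the groups do not share an animal of origin. Sex, animal and medium therefore cannot be told apart in these libraries, and this holds for every difference given here. None of the 39 genes (0) lies on X or Y. The estimated depth was about 28200000 to 34000000 reads for low glutamine libraries and 24300000 to 35300000 reads for control libraries. Epithelial markers were abundant, with 7 markers summing to 2431 to 2513 RPKM in low glutamine and 1928 to 2089 RPKM in control libraries. These markers did not move together, as 4 were called higher and 3 lower (Krt19, Vil1 and Cdx2). The 11 stromal markers summed to under 1 RPKM in every library, with Col3a1 and Lum at 0 throughout. The 10 immune markers summed to 2.58 to 2.68 RPKM in low glutamine and 1.94 to 2.11 RPKM in control libraries, with Cd4 at 0 throughout.

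Most replication genes were higher in low glutamine organoids, and 7 of them by at least 1.5-fold on the log2(RPKM + 1) scale. By limma on log2(RPKM + 1), 32 of 39 were higher and 1 was lower at an adjusted p under 0.05, and 6 did not pass. Among all 11082 tested genes, 36.1% were called higher and 30.3% lower, 66.4% in either direction. The median log2 fold change of the 39 genes was 0.33, against 0.03 for all tested genes, and single genes ran from -0.16 (Orc1) to 0.73 (Prim2). Fold changes below are log2 of RPKM + 1, low glutamine over control, with their SE, and RPKM means carry the SD of 3 libraries. The 3 low glutamine libraries lay wholly above the 3 control libraries for 30 genes and wholly below for 0, where 38.9% and 31.3% of all tested genes did so. Called and at least 1.5-fold higher on this scale were 7 genes: Mcm2, Mcm3, Mcm4, Mcm6, Gins1, Prim2 and Pole. Over all tested genes that share was 9.3%. Gins2, also called higher, fell short of 1.5-fold on this scale but had a ratio of mean RPKM of 1.51. Together the 39 genes made up 0.268% to 0.279% of the RPKM sum in low glutamine libraries and 0.187% to 0.195% in control libraries.

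**Figure D1:**
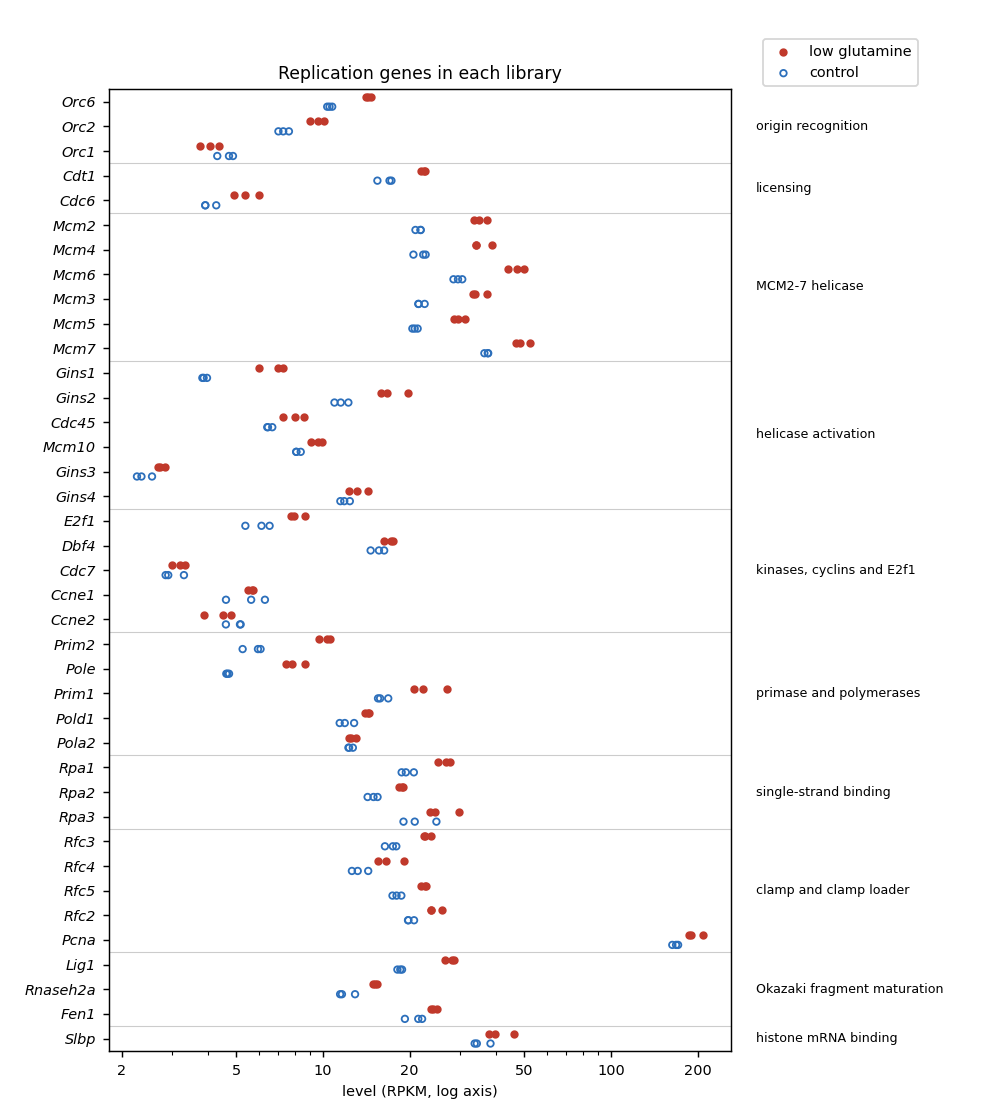
Level of each of the 39 replication genes in each library, in RPKM on a log axis, with genes grouped by role. Filled red points are the 3 low glutamine libraries and open blue points the 3 control libraries; the groups do not overlap for 30 genes, all with low glutamine on the right.

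Cell type markers differed between the groups as well. All 13 intestinal stem cell markers were called higher, and they summed to 1986 to 2180 RPKM in low glutamine and 1026 to 1111 RPKM in control libraries. Of 14 enterocyte markers 13 were called lower and 1 higher, and they summed to 428 to 479 RPKM in low glutamine and 2761 to 2972 RPKM in control libraries. In bulk RNA, a change in the number of cells of a type and a change in RNA per cell cannot be told apart. The part of the marker shifts in the replication genes was not tested.

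Several replication genes carry E2F motifs next to their start sites. RefSeq promoter windows on GRCm38.p6, from 250 bases before to 50 after an annotated start, matched 31 of the 39 genes. The letters searched were TTTCCCGC, TTTGGCGC, TTTCGCGC and TTTGCCGC on both strands, with overlapping matches allowed. A match lay in at least 1 window of 11 of the 31 genes (35.5%), and in 2.26% of all 32851 windows. By gene, the share was 2.61% of 27025 genes with a window and 4.91% of the 8785 tested ones. The 11 genes were Mcm3, Mcm5, Mcm6, Mcm7, Cdc6, Cdt1, Gins3, Orc1, Pold1, Rfc3 and Lig1. The shorter CCAAT motif, searched the same way, lay in 19 of the 31 genes (61.3%) and in 37.4% of all windows, 41.1% of genes with a window and 43.7% of the tested ones. The sequences of 4 windows, 5′ to 3′ with the E2F motifs in capitals, show where the matches sit: the helicase subunits Mcm3 and Mcm6 and the clamp loader subunit Rfc3, which were higher in low glutamine, and Orc1, which was not. The windows are chr1:20820263-20820562 (minus strand) for Mcm3, chr1:128359656-128359955 (minus) for Mcm6, chr5:151651159-151651458 (minus) for Rfc3 and chr4:108579204-108579503 (plus) for Orc1.
Mcm3: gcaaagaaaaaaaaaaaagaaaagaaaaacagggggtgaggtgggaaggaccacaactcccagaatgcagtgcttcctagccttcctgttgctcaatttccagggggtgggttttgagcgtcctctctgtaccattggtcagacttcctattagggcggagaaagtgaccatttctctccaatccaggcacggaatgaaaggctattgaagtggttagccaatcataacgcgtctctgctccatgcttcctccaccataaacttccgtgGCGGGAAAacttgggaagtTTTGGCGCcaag
Mcm6: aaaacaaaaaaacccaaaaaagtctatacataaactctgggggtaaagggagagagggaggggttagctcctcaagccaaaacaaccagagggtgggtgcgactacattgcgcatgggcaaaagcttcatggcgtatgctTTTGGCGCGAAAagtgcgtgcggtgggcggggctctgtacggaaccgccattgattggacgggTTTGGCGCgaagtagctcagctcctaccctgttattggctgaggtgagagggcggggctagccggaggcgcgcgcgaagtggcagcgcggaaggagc
Rfc3: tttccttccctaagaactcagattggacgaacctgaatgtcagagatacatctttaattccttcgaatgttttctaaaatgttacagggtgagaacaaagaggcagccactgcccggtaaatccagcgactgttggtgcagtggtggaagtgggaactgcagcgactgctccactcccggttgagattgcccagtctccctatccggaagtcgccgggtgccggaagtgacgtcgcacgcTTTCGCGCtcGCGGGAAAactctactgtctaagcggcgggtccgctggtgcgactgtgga
Orc1: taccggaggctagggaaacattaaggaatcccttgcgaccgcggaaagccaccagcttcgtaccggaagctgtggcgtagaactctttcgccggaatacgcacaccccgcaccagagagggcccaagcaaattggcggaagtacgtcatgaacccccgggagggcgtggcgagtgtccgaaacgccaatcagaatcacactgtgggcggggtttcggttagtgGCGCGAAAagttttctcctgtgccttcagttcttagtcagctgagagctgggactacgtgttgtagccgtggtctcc
Mcm6 held 3 matches, of which the pair beginning at positions -110 and -106 from the start site overlap. Mcm3 and Rfc3 held 2 matches each, and Orc1 held 1, beginning at position -27. The 11 genes with a match had log2 fold changes of -0.16 to 0.66 (median 0.40), and the 20 genes with a window and no match had 0.02 to 0.68 (median 0.28). The fold changes of both sets cover much the same range, but the low end with a match was Orc1 alone, the next lowest being Gins3 at 0.15. Called higher were 10 of the 11 genes with a match and 16 of the 20 without, beside 36.1% of all tested genes. A difference between the sets was not tested. Outside this comparison are the 8 genes without a window (Mcm4, Ccne2, Gins1, Gins2, Gins4, Prim2, Pole and Rfc2), at -0.15 to 0.73 (median 0.60). A match is a run of letters, and no factor's binding was measured here.

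Of the 3 origin recognition subunits among the 39 genes, 2 were called higher and 1 lower. Orc6, needed for helicase loading in yeast and flies, measured 14.7, 14.3 and 14.1 RPKM in low glutamine libraries, against 10.8, 10.5 and 10.3 RPKM in control libraries (log2 fold change 0.41 ± 0.05 SE, limma adjusted p = 1.1e-05). Orc2, a core subunit, averaged 9.57 ± 0.553 RPKM in low glutamine and 7.30 ± 0.307 RPKM in control organoids (SD, n = 3 each; limma adjusted p = 1.7e-04). Both rose with no overlap between groups. Orc1 (mm10 chromosome 4, 108575705 to 108616030) is an ATP-binding subunit known to be degraded after G1 phase in human cells. It measured 4.36, 3.74 and 4.07 RPKM in low glutamine libraries, against 4.87, 4.30 and 4.72 RPKM in control libraries. The Orc1 groups overlapped, and its call as lower was marginal (-0.16 ± 0.06, limma adjusted p = 0.0499). That call was lost without control replicate 1 (adjusted p = 0.16) or 3 (0.11), and without low glutamine replicate 2 (0.19) or 3 (0.089). Its log2 fold change was -0.25 to -0.03 under the 5 rescalings, and the call was lost under 3 of them: a common RPKM sum (adjusted p = 0.46), the same without Rn45s (0.68) and upper-quartile scaling (0.18). Of the remaining subunits, from the list of other replication genes, Orc3 and Orc4 were called higher (0.26 and 0.14) and Orc5 did not pass (0.15). Orc4 lost its call without control replicate 2 (limma adjusted p = 0.10) or 3 (0.10), or low glutamine replicate 1 (0.11) or 3 (0.10). The Orc4 call was also lost with median-of-ratios scaling (limma adjusted p = 0.17), quantile normalization (0.12) and no filter on low values (0.064). Orc5 passed as higher under a block for replicate number (limma adjusted p = 0.021), and without low glutamine replicate 1 (0.044) or 2 (0.041). It also passed with a common RPKM sum (limma adjusted p = 0.0038), the same without Rn45s (0.0020) and upper-quartile scaling (0.010).

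Both licensing factors that load the helicase were higher. Cdc6, the ATPase loader (chromosome 11, 98907709 to 98923942), measured 5.38, 4.92 and 6.02 RPKM in low glutamine libraries, against 3.90, 4.26 and 3.90 RPKM in control libraries (0.36 ± 0.07, limma adjusted p = 5.8e-04). Cdt1, its partner (chromosome 8, 122568015 to 122573130), measured 22.0, 22.7 and 22.5 RPKM in low glutamine libraries, against 17.0, 17.3 and 15.5 RPKM in control libraries (0.41 ± 0.06, limma adjusted p = 3.4e-05). Neither gene's groups overlapped. Geminin (Gmnn), the inhibitor that binds Cdt1, averaged 22.7 ± 0.470 RPKM in low glutamine and 24.4 ± 0.0629 RPKM in control organoids and did not pass (limma adjusted p = 0.099). It passed as lower without low glutamine replicate 3 (limma adjusted p = 0.047), with no filter on low values (0.023) and with median-of-ratios scaling (0.0013). Its log2 fold change of -0.10 became 0.03 with a common RPKM sum and 0.05 where that sum left out Rn45s. The ratio of Cdt1 to Gmnn within a library was 0.954, 1.02 and 0.980 in low glutamine libraries, against 0.699, 0.708 and 0.636 in control libraries. This ratio does not depend on how libraries are scaled, and its groups did not overlap (exact permutation p = 0.10, two-sided, the smallest that 3 against 3 can give, and 0.12 adjusted over 7 ratios).

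All 6 subunits of the MCM helicase were called higher, with no overlap between groups and a median log2 fold change of 0.65. Mcm2 (chromosome 6, 88883474 to 88898780) measured 35.0, 33.5 and 37.1 RPKM in low glutamine libraries, against 21.8, 21.8 and 21.0 RPKM in control libraries (0.68 ± 0.05, limma adjusted p = 2.9e-07). Mcm6 (chromosome 1, 128331575 to 128359705) measured 47.3, 44.1 and 50.04 RPKM in low glutamine libraries, against 30.5, 29.4 and 28.4 RPKM in control libraries (0.66 ± 0.06, limma adjusted p = 8.6e-07). Mcm7 (chromosome 5, 138164583 to 138172111) measured 48.4, 46.8 and 52.2 RPKM in low glutamine libraries, against 37.4, 36.4 and 37.5 RPKM in control libraries (0.40 ± 0.06, limma adjusted p = 5.1e-05). Low glutamine replicate 3 was the highest library for each of the 3 subunits. Mcm3 (chromosome 1, 20802966 to 20820312) measured 33.8, 33.3 and 37.0 RPKM in low glutamine libraries, against 22.5, 21.4 and 21.5 RPKM in control libraries (0.64 ± 0.06). Mcm4 (chromosome 16, 15623897 to 15637400) measured 34.1, 34.1 and 38.5 RPKM in low glutamine libraries, against 22.7, 20.6 and 22.3 RPKM in control libraries (0.68 ± 0.06). Mcm5 (chromosome 8, 75109468 to 75128439) measured 29.5, 28.5 and 31.1 RPKM in low glutamine libraries, against 20.8, 21.3 and 20.4 RPKM in control libraries (0.49 ± 0.05). Here too low glutamine replicate 3 was highest and each low glutamine library exceeded each control library.

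The subunits form a ring with 1 copy of each, while their mRNA levels differed. The highest subunit, Mcm7 in every library, stood 1.64 to 1.68 times above the lowest in low glutamine libraries and 1.76 to 1.83 times in control libraries. The lowest was Mcm5, except in control replicate 2, where it was Mcm4. Mcm2, Mcm3, Mcm4 and Mcm5 averaged 35.2, 34.7, 35.6 and 29.7 RPKM in low glutamine, and 21.5, 21.8, 21.9 and 20.9 RPKM in control organoids, so these 4 lay farther apart in low glutamine. The ratio of Mcm4 to Mcm7 within a library was 0.724 ± 0.017 in low glutamine and 0.590 ± 0.021 in control organoids (SD, n = 3 each; exact permutation p = 0.10, 0.12 adjusted over 7 ratios). Mcm2 to Mcm5 gave 1.18 ± 0.0097 in low glutamine and 1.03 ± 0.0132 in control organoids (exact permutation p = 0.10, 0.12 adjusted over 7 ratios). Both ratios were higher in each low glutamine library than in any control library. Mcm7 overlaps the gene Ap4m1 and a microRNA cluster, and the strand setting of the counting was not given in the sources used here.

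**Figure D2:**
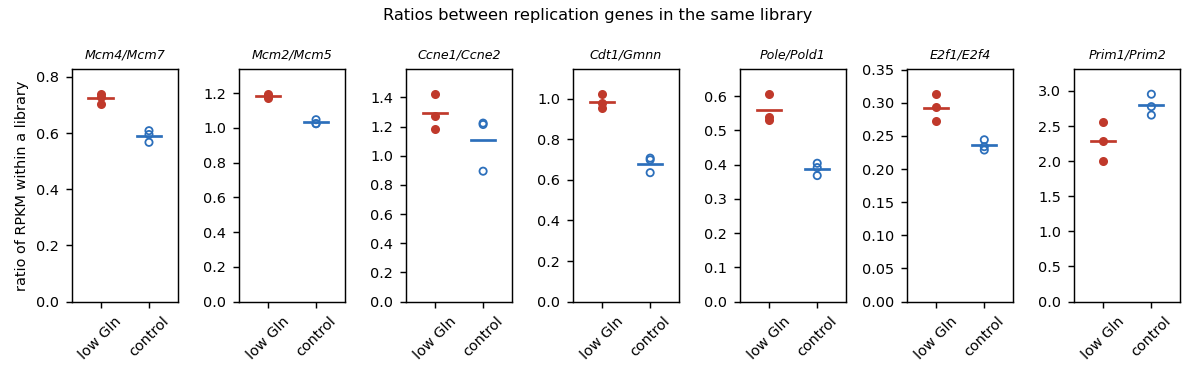
Ratios of RPKM between pairs of replication genes in the same library, 1 panel per pair with its own axis from 0. Points are the 3 libraries of a group and bars their means; the groups overlap for Ccne1/Ccne2 and for none of the other 6 pairs.

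Of 6 genes for proteins that turn the loaded ring into a working helicase, 5 were called higher. Gins1 (chromosome 2, 150909556 to 150931280) measured 7.0, 6.0 and 7.27 RPKM in low glutamine libraries, against 3.81, 3.85 and 3.96 RPKM in control libraries (0.67 ± 0.07, limma adjusted p = 2.2e-06). Gins2 averaged 17.5 ± 2.07 RPKM in low glutamine and 11.6 ± 0.647 RPKM in control organoids (0.55 ± 0.08). These are subunits of the same 4-protein GINS complex as Gins3 and Gins4, which stood much closer to control. Gins3, the lowest of the 39 genes, averaged 2.74 ± 0.0799 RPKM in low glutamine and 2.38 ± 0.149 RPKM in control organoids (0.15 ± 0.06, limma adjusted p = 0.048). Gins4 averaged 13.2 ± 1.01 RPKM in low glutamine and 11.9 ± 0.455 RPKM in control organoids (0.14 ± 0.06, limma adjusted p = 0.063). Neither of these small differences was stable. Gins3 lost its call under a block for replicate number (limma adjusted p = 0.052). It also lost it when any library other than control replicate 1 was left out (0.060 to 0.17), and its fold change was -0.024 after quantile normalization. Median-of-ratios scaling (limma adjusted p = 0.21), a pseudocount of 0.1 (0.0505) and no filter on low values (0.059) removed the Gins3 call too. Gins4 passed as higher under the block (limma adjusted p = 0.037), and without control replicate 3 (0.0496) or low glutamine replicate 1 (0.034). It also passed with either common RPKM sum and with upper-quartile scaling (0.0016 to 0.0080). Cdc45, which joins GINS on the helicase, and Mcm10, which helps start unwinding, were higher by 0.25 and 0.20, with no overlap between groups. Cdc45 averaged 7.95 ± 0.68 RPKM in low glutamine and 6.51 ± 0.142 RPKM in control organoids, and Mcm10 averaged 9.55 ± 0.435 RPKM in low glutamine and 8.18 ± 0.169 RPKM in control organoids.

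On the values as deposited, the 4 kinase and cyclin genes for triggering origins did not pass the test, while E2f1 did. Cdc7, the kinase that phosphorylates MCM subunits, averaged 3.16 ± 0.154 RPKM in low glutamine and 3.01 ± 0.243 RPKM in control organoids (0.05 ± 0.06, limma adjusted p = 0.47). Its activator Dbf4 averaged 17.0 ± 0.654 RPKM in low glutamine and 15.5 ± 0.842 RPKM in control organoids (0.12 ± 0.06, limma adjusted p = 0.072). The groups overlapped for both, and both passed as higher with a common RPKM sum, with or without Rn45s. Dbf4 also passed as higher with upper-quartile scaling (limma adjusted p = 0.0025) and quantile normalization (0.0044). Cdc7 passed with neither, and its fold change was -0.017 with median-of-ratios scaling and -0.088 after quantile normalization. Cyclin E1 (Ccne1) measured 5.74, 5.50 and 5.68 RPKM in low glutamine libraries, against 6.29, 5.63 and 4.61 RPKM in control libraries (0.04 ± 0.08, limma adjusted p = 0.71). The control values span those of low glutamine. Cyclin E2 (Ccne2) measured 4.51, 3.86 and 4.81 RPKM in low glutamine libraries, against 5.18, 4.60 and 5.15 RPKM in control libraries (-0.15 ± 0.07, limma adjusted p = 0.083). Ccne2 passed as lower under the block (limma adjusted p = 0.027), without control replicate 2 (0.040) or low glutamine replicate 3 (0.037), and with median-of-ratios scaling (0.013) or quantile normalization (0.014). E2f1, an activating E2F (chromosome 2, 154559400 to 154569892), measured 7.92, 8.69 and 7.73 RPKM in low glutamine libraries, against 6.12, 6.53 and 5.38 RPKM in control libraries (0.38 ± 0.07, limma adjusted p = 3.7e-04). All low glutamine libraries lay above control for E2f1.

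Of 5 primase and polymerase genes 4 were called higher, with Prim2 and Pole highest. Prim2, the large primase subunit (chromosome 1, 33453808 to 33669808), measured 9.69, 10.3 and 10.5 RPKM in low glutamine libraries, against 5.95, 5.26 and 6.07 RPKM in control libraries (0.73 ± 0.06, limma adjusted p = 4.5e-07). Pole, the catalytic subunit of the leading-strand polymerase (chromosome 5, 110286319 to 110337468), measured 7.81, 7.41 and 8.66 RPKM in low glutamine libraries, against 4.66, 4.72 and 4.62 RPKM in control libraries (0.66 ± 0.06, limma adjusted p = 9.5e-07). Both had no overlap between groups and ratios of mean RPKM of 1.77 and 1.71. Prim1, the catalytic primase subunit, averaged 23.3 ± 3.30 RPKM in low glutamine and 16.1 ± 0.699 RPKM in control organoids (0.50 ± 0.08). Pold1, the catalytic subunit of the lagging-strand polymerase, averaged 14.2 ± 0.260 RPKM in low glutamine and 12.1 ± 0.710 RPKM in control organoids (0.23 ± 0.05). Pola2, the accessory subunit of the polymerase that works with primase, did not pass, at 12.6 ± 0.389 RPKM in low glutamine and 12.4 ± 0.238 RPKM in control organoids (0.02 ± 0.05, limma adjusted p = 0.73). It passed as higher with a common RPKM sum (limma adjusted p = 0.0048), the same without Rn45s (0.0018) and upper-quartile scaling (0.037). The ratio of Pole to Pold1 was 0.559 ± 0.041 in low glutamine and 0.388 ± 0.018 in control libraries, and that of Prim1 to Prim2 was 2.29 ± 0.276 in low glutamine and 2.79 ± 0.15 in control libraries. Groups overlapped for neither ratio (exact permutation p = 0.10 each, 0.12 adjusted over 7 ratios).

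The clamp, its loader and the single-strand binding proteins were all called higher, by 0.22 to 0.42. Pcna, the sliding clamp and the most abundant of the 39 mRNAs (chromosome 2, 132249286 to 132253180), measured 187, 190.2 and 209 RPKM in low glutamine libraries, against 168, 163 and 171 RPKM in control libraries (0.22 ± 0.06, limma adjusted p = 0.0078). RefSeq lists the pseudogenes Pcna-ps1 and Pcna-ps2, so reads may be shared among copies. The clamp loader subunits Rfc2, Rfc3, Rfc4 and Rfc5 were all called higher with no overlap, by 0.27, 0.39, 0.33 and 0.30. The largest of these, Rfc3, measured 23.8, 22.4 and 22.7 RPKM in low glutamine libraries, against 18.0, 17.5 and 16.4 RPKM in control libraries. Rpa1 and Rpa2, which coat single-stranded DNA, were higher by 0.42 and 0.31, again with no overlap. Rpa1 averaged 26.6 ± 1.3 RPKM in low glutamine and 19.6 ± 0.978 RPKM in control organoids, and Rpa2 averaged 18.7 ± 0.274 RPKM in low glutamine and 14.9 ± 0.594 RPKM in control organoids. Their partner Rpa3 averaged 25.9 ± 3.28 RPKM in low glutamine and 21.5 ± 2.93 RPKM in control organoids (0.26 ± 0.10, limma adjusted p = 0.033) with overlapping groups. Rpa3 lost its call without control replicate 1 (limma adjusted p = 0.093) or 2 (0.12), or low glutamine replicate 3 (0.17). The Rpa3 call was also lost with median-of-ratios scaling (limma adjusted p = 0.19) and with no filter on low values (0.14).

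The enzymes that finish Okazaki fragments were higher. Lig1, the ligase that seals them (chromosome 7, 13277175 to 13311426), measured 28.0, 26.5 and 28.4 RPKM in low glutamine libraries, against 18.8, 18.1 and 18.6 RPKM in control libraries (0.55 ± 0.05, limma adjusted p = 1.1e-06). The flap nuclease Fen1 and the RNase H2 subunit Rnaseh2a, which remove primer RNA, were higher by 0.20 and 0.32. Fen1 averaged 24.2 ± 0.575 RPKM in low glutamine and 20.9 ± 1.48 RPKM in control organoids, and Rnaseh2a averaged 15.2 ± 0.287 RPKM in low glutamine and 12.01 ± 0.796 RPKM in control organoids. In all 3 genes the groups did not overlap. Slbp, which binds the stem-loop of histone mRNAs made in S phase, averaged 41.2 ± 4.30 RPKM in low glutamine and 35.3 ± 2.46 RPKM in control organoids (0.21 ± 0.08, limma adjusted p = 0.026). The Slbp groups overlapped, and the call was lost without control replicate 1 (limma adjusted p = 0.091) or 2 (0.082) or low glutamine replicate 3 (0.085). Median-of-ratios scaling (limma adjusted p = 0.16) and no filter on low values (0.093) also removed it.

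**Figure D3:**
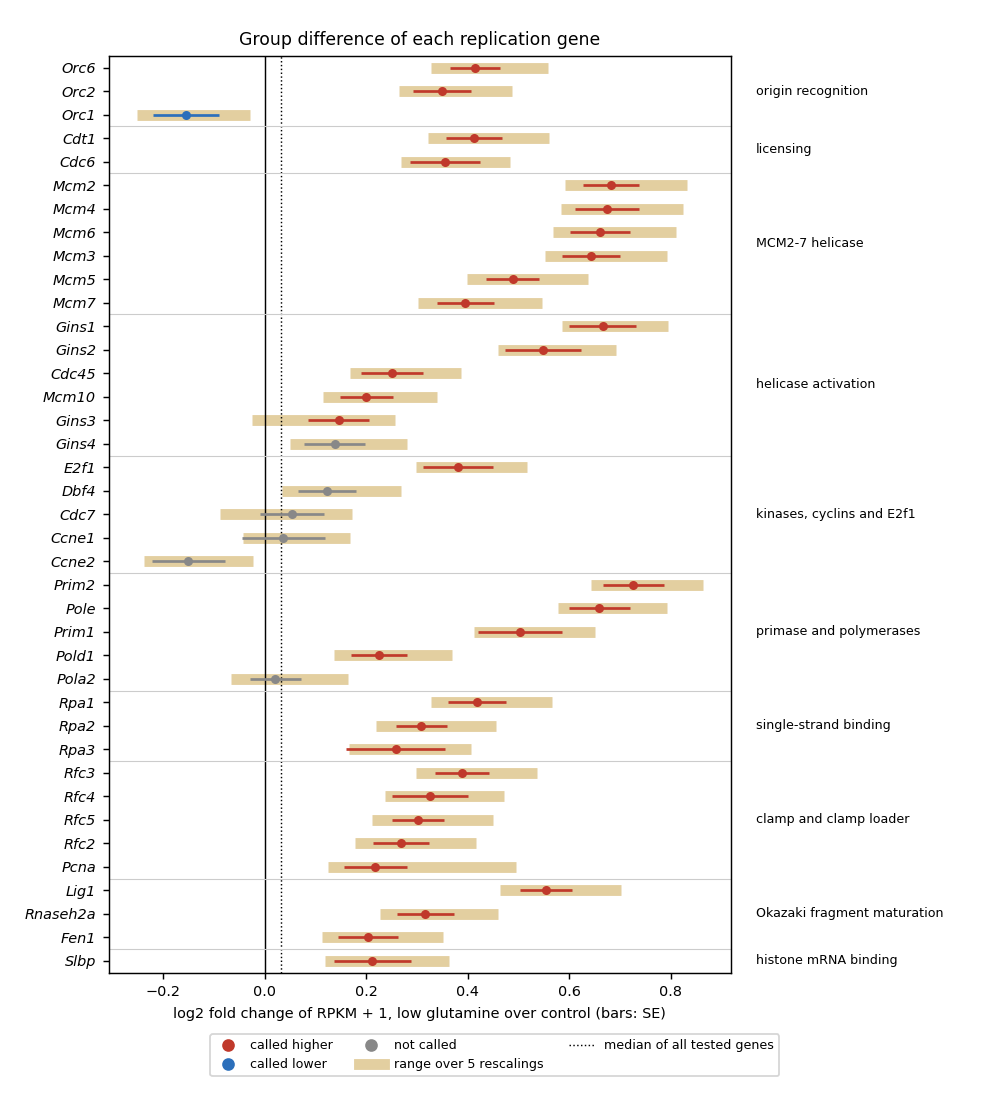
Log2 fold change of RPKM + 1, low glutamine over control, with SE bars for each gene by role; red points were called higher, blue lower and grey not called. The pale bars span the fold change under 5 rescalings and the dotted line is the median of all tested genes (0.03); Prim2 is highest at 0.73 and Orc1 lowest at -0.16.

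The size of the rise depended on how libraries were put on a common scale. RPKM sums were 327956 to 347248 in low glutamine libraries and 362217 to 370158 in control libraries. Rn45s, the ribosomal RNA precursor, measured 6788 to 12252 RPKM in low glutamine libraries and 1898 to 6680 RPKM in control libraries. When libraries were brought to an equal RPKM sum, 36 of the 39 genes were called higher and 0 lower. Of all tested genes, 51.2% were then called higher, against 36.1% as deposited. The median log2 fold change was 0.44 against 0.14 for all genes. With median-of-ratios scaling, 29 were higher and 2 lower, beside 29.6% of all tested genes called higher, and the medians were 0.24 and -0.05. The list median exceeded that of all genes by 0.29 as deposited, by 0.33 after quantile normalization and by 0.23 with a pseudocount of 5. With a minimum mean of 5 RPKM, where 34 of the 39 genes were tested, it did so by 0.37. The other 4 rescalings use 1 factor per library and move both medians nearly alike, so they do not test this difference. Of all calls over the table, 54.4% were higher as deposited and 42.2% with median-of-ratios scaling. With an equal sum the share was 69.0%, or 71.6% where the sum left out Rn45s. The 29 genes called higher as deposited other than Gins3, Rpa3 and Slbp were also called higher under each rescaling.

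**Figure D4:**
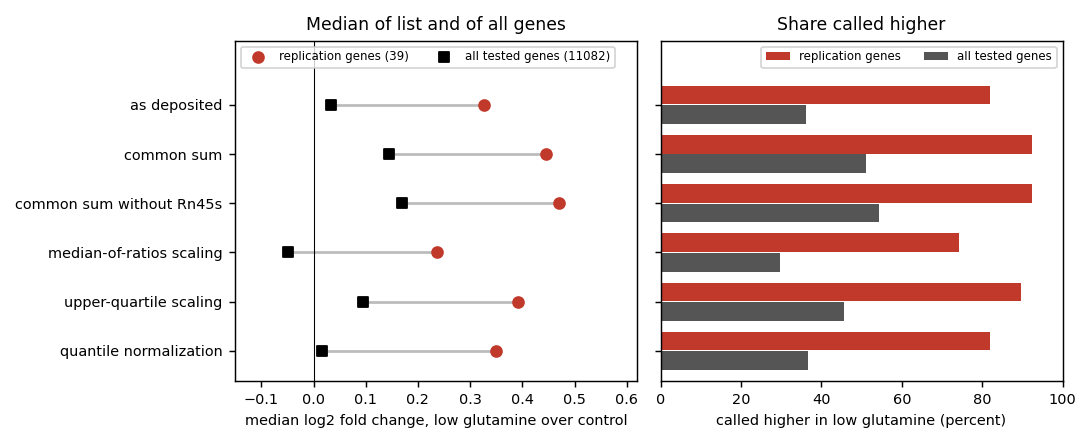
Left, median log2 fold change (low glutamine over control) of the 39 replication genes (red circles) and of all 11082 tested genes (black squares) as deposited and under 5 rescalings; right, the percent of each called higher. Circles and squares move together under the 4 rescalings that use 1 factor per library; the distance between them is 0.29 as deposited and 0.33 after quantile normalization.

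Replicates of a group differed in a way the replication genes shared with the rest of the table. In low glutamine replicate 3, 35 of the 39 genes (89.7%) lay above their group mean, as did 76.0% of all tested genes. In low glutamine replicate 2, 7 genes (17.9%) and 21.4% of all tested genes did so. Leaving out low glutamine replicate 3 left 29 genes called higher and 1 lower, which was then Ccne2 in place of Orc1. That fit called 33.5% of all tested genes higher.

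Other genes of replication and S phase were taken from lists by function, and their counts stand beside 36.1% called higher and 30.3% called lower over all tested genes. Of 29 further replisome and origin genes 18 were called higher and 1 lower, with a median log2 fold change of 0.20. With median-of-ratios scaling 15 were higher and 5 lower, with no filter 3 were lower, and without low glutamine replicate 3 there were 4 lower. Pola1, the catalytic subunit that pairs with Pola2, was highest at 0.92 ± 0.07 (11.8 ± 0.924 RPKM in low glutamine and 5.73 ± 0.386 RPKM in control organoids; limma adjusted p = 9.4e-08), and it lies on the X chromosome. The clamp loader partner Dscc1 was higher by 0.52, and the small polymerase delta subunit Pold4 fell by 0.62 on the log2 scale. Of 12 genes of dNTP supply 8 were higher and 2 lower. Rrm1, the large subunit of ribonucleotide reductase, Dut, which removes dUTP, and Tyms, which makes thymidylate, were higher by 0.59, 0.56 and 0.56, and the UMP and CMP kinase Cmpk1 and the dNTP hydrolase Samhd1 fell by 0.51 and 0.28. Of 14 chromatin assembly genes 11 were higher, led by the maintenance methyltransferase Dnmt1 (0.72), the chromatin remodeller Hells (0.54) and the histone chaperone subunit Chaf1b (0.54). Tonsl and the histone chaperone Asf1b were called lower (-0.34 and -0.13). Asf1b was at 0.018 with a common sum without Rn45s, lost its call under the block (limma adjusted p = 0.057), and kept its call only without low glutamine replicate 3 among the libraries left out (adjusted p 0.063 to 0.15 for the others). Of 17 checkpoint genes 15 were higher, among them the fork protection partners Tipin (0.73) and Timeless (0.64) and the recombination factor Brca2 (0.72), and the checkpoint clamp subunit Rad9a fell by 0.24. Of 22 mitotic genes 15 were higher and 1 lower, with a median of 0.20. The kinetochore gene Cenpf, the topoisomerase Top2a and the proliferation marker Mki67 were higher by 0.71, 0.54 and 0.50. Birc5, of the chromosomal passenger complex, was called lower (-0.18) but not with a common sum or without low glutamine replicate 1 (limma adjusted p = 0.072) or 2 (0.053).

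Genes that control E2F moved in both directions. Rb1, which encodes the retinoblastoma protein, measured 6.52, 6.61 and 6.83 RPKM in low glutamine libraries, against 18.2, 18.7 and 17.9 RPKM in control libraries (-1.33 ± 0.05, limma adjusted p = 2.2e-10). E2f2, an activating E2F, measured 3.77, 3.32 and 3.87 RPKM in low glutamine libraries, against 8.50, 9.21 and 9.06 RPKM in control libraries (-1.09 ± 0.06, limma adjusted p = 9.6e-09). Both fell with no overlap between groups, E2f2 in the opposite direction to E2f1. Cdk6, a kinase that phosphorylates the retinoblastoma protein, measured 33.3, 32.9 and 31.3 RPKM in low glutamine libraries, against 15.9, 15.3 and 14.5 RPKM in control libraries (1.05 ± 0.05, limma adjusted p = 4.8e-09). Cdkn1a, the inhibitor p21 of cyclin-dependent kinases, averaged 47.6 ± 0.727 RPKM in low glutamine and 83.0 ± 3.77 RPKM in control organoids (-0.79 ± 0.05, limma adjusted p = 7.6e-08). Another such inhibitor, Cdkn1c, went the other way, at 6.14 ± 0.275 RPKM in low glutamine and 3.24 ± 0.487 RPKM in control organoids (0.76 ± 0.08, limma adjusted p = 3.2e-06). Ccnd3, cyclin D3, fell by 0.26, a call lost with a common sum (-0.14, limma adjusted p = 0.053). Of the 27 genes in this list 13 (48.1%) were called higher and 4 lower, with a median of 0.13, where 36.1% of all tested genes were called higher. With a common sum 22 were higher, where the share of all tested genes was 51.2%. The ratio of E2f1 to E2f4, a repressing E2F, was 0.293 ± 0.020 in low glutamine and 0.236 ± 0.008 in control libraries, without overlap (exact permutation p = 0.10, 0.12 adjusted over 7 ratios). That of Ccne1 to Ccne2 overlapped (1.29 ± 0.122 in low glutamine and 1.11 ± 0.188 in control libraries; exact permutation p = 0.30).

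**Figure D5:**
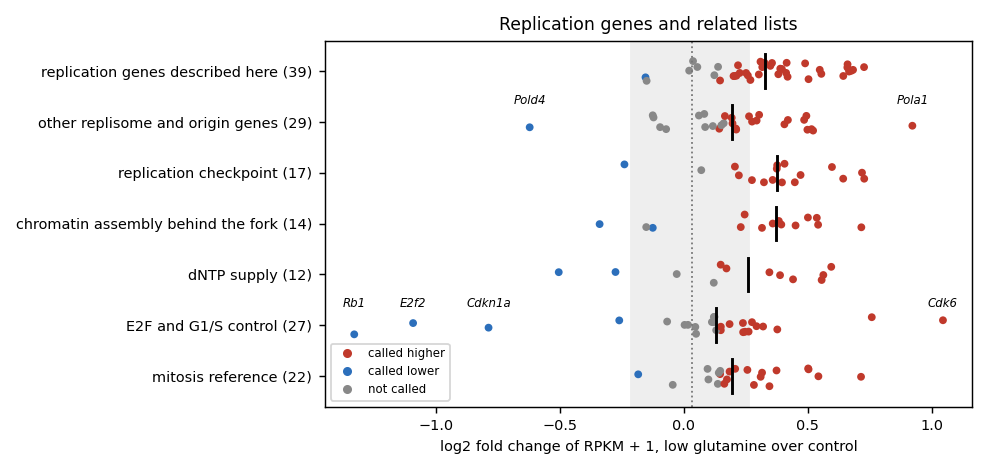
Log2 fold change of RPKM + 1, low glutamine over control, for each tested gene of the 39 replication genes and of 6 related lists (number of genes in brackets); red was called higher, blue lower and grey not called. Black bars are list medians, the grey band spans the middle quartiles of all tested genes and the dotted line their median; Rb1 (-1.33) and E2f2 (-1.09) lie farthest left of these genes.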

How the data were processed

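RNA-seq was run on 6 libraries of Apc Min mouse intestinal organoids, 3 in low glutamine and 3 in control medium. The deposited values are RPKM, made by the authors, 1 column per library. Tools listed in the submitters' processing notes, without role or order, are CASAVA 1.8, HISAT2 2.0.4 and Partek, with mm10 as build. No source used here gives the annotation, the counting rule or read totals, and no count test was applied. Depth was estimated from low RPKM of single-exon genes, where annotated length gives the value of 1 read: 82.7% to 87.9% of values were then whole within 0.02. A 1 kilobase transcript at 1 RPKM thus rested on 24.3 to 35.3 reads.

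Testing covered 11082 genes (mean 1 RPKM or more) with limma 3.58.1 (R 4.3.3, variance trend, two-sided, Benjamini-Hochberg over all tested genes, threshold 0.05) on log2(RPKM + 1), which understates changes of low genes. Ratios used exact permutation tests. Tables and plots used Python 3.11.15, pandas 2.3.3, numpy 2.4.6 and matplotlib 3.10.9. Nothing says whether replicates within a group came from separate animals, so p-values reflect only how these samples spread, which may be technical. Gene bounds and promoters are RefSeq on GRCm38.p6 (mm10), 1-based. Of the 39 genes, 15 overlap another RefSeq gene, 10 of them a protein-coding one (Mcm7, Ccne2, Gins2, Cdc45, Rpa1, Fen1, E2f1, Orc1, Rfc4 and Lig1), and reads could be shared there.

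Same-numbered libraries deviated together from their group means (correlations 0.15, 0.24 and 0.57 for numbers 1, 2 and 3), which met the rule of every pair above 0.1. The unmatched pair of low glutamine 1 and control 2 reached 0.36, so the numbering itself is not shown to be a shared batch. The fit with the replicate number as a block is given where it changed the call of a named gene. Of the 39 genes it called 2 lower against 1. It moved no other list's count of calls by over 1.5 times, the largest shifts being 20 higher against 18 (other replisome genes) and 18 against 15 (mitosis). The alternatives were 5 rescalings, pseudocounts of 0.1 and 5, no filter or at least 5 RPKM, no variance trend, autosomal genes, the block, and each library left out. All 39 genes are named, with the 3 largest changes and the opposite calls of each other list; further list genes were named after their values were seen. The members and lists were chosen with earlier results of these data known.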

Additional observations from a re-analysis of the deposited data

How the results depend on the processing

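Of the 39 genes, 29 were called higher under each of the 18 alternatives that tested them. Over the 39 genes and 18 alternatives, 641 of 697 values kept their direction and side of the threshold, 28 lost a call, 20 gained one and 8 reversed. The count called higher was 29 to 36. Among all tested genes the share called higher ran from 29.6% (median-of-ratios scaling) to 54.3% (common sum without Rn45s). The count called lower (1, Orc1) was 0 with either common sum, upper-quartile scaling, a pseudocount of 0.1, no filter or a minimum of 5 RPKM. It was 2 with median-of-ratios scaling, quantile normalization or the replicate block. The median log2 fold change of 0.33 became 0.44 and 0.47 with a common sum with and without Rn45s, 0.24 with median-of-ratios scaling, 0.39 with upper-quartile scaling, 0.25 with a pseudocount of 5 and 0.36 with a minimum of 5 RPKM. Leaving out each library gave 29 to 32 called higher, 0 to 2 called lower and a median of 0.31 to 0.37. Those fits called 33.1% to 35.8% of all tested genes higher. Over all genes, 4001 calls higher became 6021 with a common sum without Rn45s and 2532 with a minimum of 5 RPKM, where 7994 genes were tested. Reversed were Ccne1 (-0.043 with median-of-ratios scaling, -0.037 with quantile normalization, -0.067 to 0.12 with a library left out, negative without control replicate 3), Cdc7 (-0.017 and -0.088 with those scalings), Pola2 (-0.067 with median-of-ratios scaling, -0.0011 to 0.039 with a library left out, negative without low glutamine replicate 3) and Gins3 (-0.024 with quantile normalization); of these 4 genes only Gins3 was called as deposited. The cause was not tested. The replicate block changed the calls of Ccne2, Gins3 and Gins4 and no other call among the 39. Of 216 counts of calls over the 6 other lists, 195 stayed within 1.5 times and 21 did not. With 3 libraries a group, no ratio could pass 0.05, and each kept its sign when any library was left out. Depth was estimated, not given, so no counting interval stands beside single values.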
